A study of Mus musculus with 18 samples.

Results

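The transcripts of 8 genes that mark fetal-like regenerative epithelium or are targets of the transcriptional co-activator YAP were followed across 18 RNA-sequencing libraries of mouse colorectal tissue and organoids. The genes are *Ly6a*, *Anxa1*, *Clu*, *Il33*, *Cyr61*, *Ctgf*, *Ankrd1* and *Msln*, and were chosen by symbol from the 36757 genes of the count table. All mice were C57BL/6, aged 6 to 8 weeks at the start, and were labelled wild type (RNF138 fl/fl in the study) or RNF138-/-. In the colitis model, both genotypes drank 2% dextran sulfate sodium (DSS) for 7 days and water for 14 days, the cycle was repeated, and colons were taken 4 weeks after the last cycle. In the colitis-associated cancer (CAC) model, mice of both genotypes were first injected with 10 mg/kg of the carcinogen azoxymethane (AOM) and then went through repeated cycles of the same DSS dose and length. Organoids of both genotypes were grown in matrigel from digested tumor-bearing fragments of CAC colon. Each of the 6 groups held 3 libraries, and no untreated colon was among them. Neither the labels nor the methods say whether the 3 libraries of a group came from separate mice or cultures, so p-values measure only the spread between these libraries, which may be technical. How the deletion was made, and in which cells, is not given in the sources used here, nor is the share of tumor in the CAC colon. Whole-colon RNA mixes epithelium, stroma, muscle and immune cells, and in it fewer cells of a type and less RNA per cell cannot be told apart.

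After injury, the intestinal epithelium can leave its usual crypt programme and re-express genes of fetal gut, a state marked by the surface protein Sca-1 (*Ly6a*), annexin A1 and clusterin. YAP and its relative TAZ, which the Hippo kinases keep out of the nucleus, drive much of this programme by binding TEAD proteins on DNA, and *Cyr61*, *Ctgf* and *Ankrd1* are their textbook targets. The same 3 genes also respond to YAP in fibroblasts and other stromal cells.

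Promoters are shown because TEAD proteins bind the letters GGAATG, read on either strand, and the genes were grouped here as YAP targets. Windows of 250 bases before the RefSeq start (GRCm38.p6) were at hand for *Cyr61*, *Il33*, *Anxa1* and *Ankrd1*, with a pair of starts for *Il33*, and all 5 windows held the letters, against 12.6% of 32851 windows of the same length. The AP-1 letters TGANTCA, which are in 6.75% of those windows, were in none of the 5. No window was at hand for *Ly6a*, *Clu*, *Ctgf* or *Msln*, so no share over all the genes followed here can be given. The windows of *Cyr61* (minus strand, chr3:145649986-145650235, match starting 103 bases before the start) and of the upstream start of *Il33* (plus strand, chr19:29924863-29925112, match starting 131 bases before it) follow 5′ to 3′, with the TEAD letters or their complement in capitals.
Cyr61: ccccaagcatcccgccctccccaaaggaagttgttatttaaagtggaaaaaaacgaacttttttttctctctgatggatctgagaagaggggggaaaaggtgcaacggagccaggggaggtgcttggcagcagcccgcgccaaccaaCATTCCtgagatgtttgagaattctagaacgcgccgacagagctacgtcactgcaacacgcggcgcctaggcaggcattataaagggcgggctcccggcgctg
Il33: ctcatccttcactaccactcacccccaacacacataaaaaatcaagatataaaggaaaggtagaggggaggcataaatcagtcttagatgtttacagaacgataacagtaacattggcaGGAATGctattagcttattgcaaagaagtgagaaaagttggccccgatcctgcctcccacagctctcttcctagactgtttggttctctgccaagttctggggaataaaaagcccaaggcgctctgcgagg
The *Ankrd1* and *Anxa1* windows overlap first exons of GENCODE transcripts, so only 30 bases around each match are shown. They lie on the minus strand at chr19:36120037-36120066 and chr19:36119950-36119979 for *Ankrd1* and at chr19:20390890-20390919 for *Anxa1*, with matches starting 210, 123 and 236 bases before the start.
Ankrd1, distal match: gtcactgccaaaGGAATGaccctctcacat
Ankrd1, proximal match: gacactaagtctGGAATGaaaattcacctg
Anxa1: actgcactgaacCATTCCtgtgaggaataa
A match of these letters is a description of the window and shows no binding.

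Several features of the libraries bear on the values below. Total counts ran from 11514716 to 24390082 per library, with a median of 17332367. *Rnf138* itself was not lower in the libraries labelled RNF138-/-. It had 16.0 to 25.5 CPM (counts scaled to a common library size) in wild type colitis and 18.1 to 19.5 in RNF138-/-, 21.0 to 28.0 and 39.6 to 45.3 in CAC, and 37.4 to 55.2 and 42.6 to 49.9 in organoids, so the genotype rests on the labels. The wild type organoids had 4924 to 6881 counts of *Xist*, the RNA of the inactive X chromosome, and 0 of 4 Y-linked genes, whereas the RNF138-/- organoids had 0 to 3 counts of *Xist* and carried all 4, as did the colons. Genotype and sex therefore cannot be told apart in the organoids, nor can culture and sex in the step from wild type CAC colon to wild type organoids, nor sex in the difference between genotypes in that step. The summed level of 7 fibroblast markers (*Col1a1*, *Col1a2*, *Col3a1*, *Dcn*, *Lum*, *Pdgfra*, *Dpt*) was 942 to 1820 CPM in the 12 colon libraries, 8940 to 23100 in wild type organoids and 40100 to 49500 in RNF138-/- organoids, with none of the 7 at 0. The 9 epithelial markers summed to 9380 to 13700 CPM in colitis, 8930 to 16800 in wild type CAC and 7130 to 8640 in RNF138-/- CAC, and to 10400 to 11500 in wild type and 5980 to 8750 in RNF138-/- organoids, so both RNF138-/- groups lay below their wild type without overlap. The 7 smooth muscle markers summed to 120 to 249 CPM in RNF138-/- CAC colon, against 2620 to 8530 in wild type CAC colon and 5080 to 15100 in both colitis groups. Wild type CAC replicate 3 stood apart from the other two, with 2180 CPM of the differentiation keratin *Krt20* against 754 and 451.

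**Figure D1:**
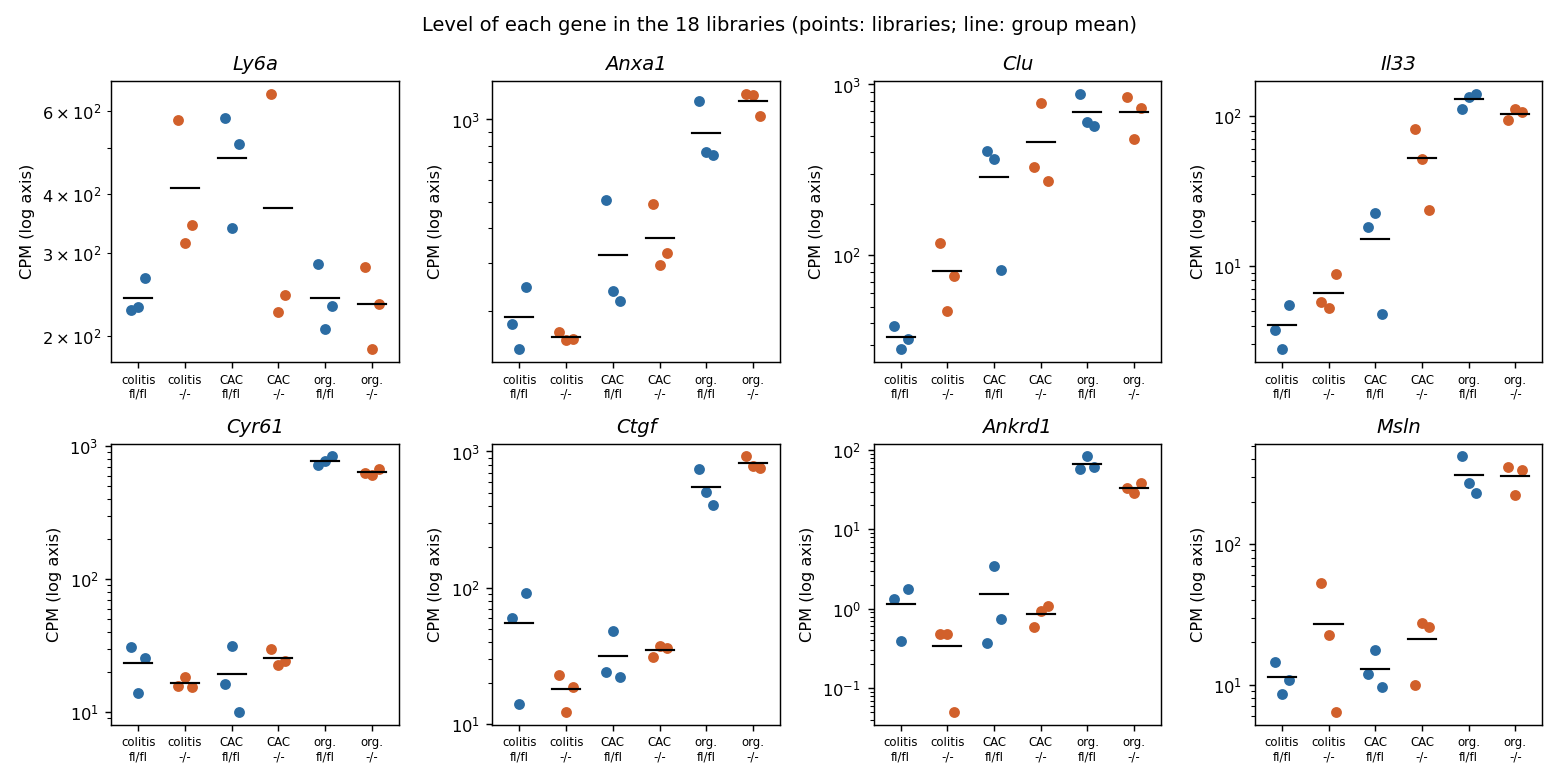
Level of each of the 8 genes in CPM (log axis) in the 18 libraries, by group on the horizontal axis. Points are libraries, blue for wild type (fl/fl) and orange for RNF138-/-, black lines are group means, and org. means organoids. Cyr61, Ctgf, Ankrd1 and Msln are far higher in all 6 organoid libraries than in any colon library, while Ly6a is not.

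Levels are CPM scaled by the trimmed mean of M-values (TMM) over all 18 libraries. Differences were tested across all genes with edgeR's quasi-likelihood test, and a gene was called at a Benjamini-Hochberg adjusted p under 0.05 with at least a 2-fold change. Between organoids and CAC colon, 7 of the 8 genes were called higher in wild type, where sex differed too, and 5 of 8 in RNF138-/-, and none lower. Over all tested genes 17.5% were called higher and 26.8% lower in wild type, and 17.9% and 26.5% in RNF138-/-. Libraries of the groups did not overlap for 8 of the 8 genes in wild type, where 65.2% of all genes did not, and for 6 in RNF138-/-, where 74% did not. The median log2 difference of the 8 genes was 3.63 in wild type and 2.75 in RNF138-/-, against −0.14 and −0.22 over all 19390 genes tested. Between CAC and colitis colon, 2 of 8 were called higher in wild type, where 9.78% of all genes were (3.81% lower), and 3 of 8 in RNF138-/-, where 17.5% were (19.6% lower). Groups did not overlap for 2 of the 8 genes in wild type and 6 in RNF138-/-, against 34.2% and 59.1% of all genes. The comparisons of CAC with colitis and of organoids with CAC share the CAC libraries.

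*Cyr61* and *Ctgf* encode secreted CCN proteins of the extracellular matrix that bind integrins. *Cyr61* (ENSMUSG00000028195.4, GRCm38 chr3:145646976-145649981, minus strand) had 724, 774 and 838 CPM in wild type organoids and 629, 606 and 673 in RNF138-/- organoids. In CAC colon it had 16.4, 31.4 and 10.1 CPM in wild type and 29.7, 22.6 and 24.4 in RNF138-/-, and in colitis 31.0, 14.1 and 25.4 in wild type and 15.6, 18.4 and 15.4 in RNF138-/-. Every organoid library was thus above every colon library, and colitis and CAC overlapped in wild type but not in RNF138-/-, where CAC was higher. The organoid level exceeded that of CAC colon 41.0-fold in wild type (log2 difference 5.36, SE 0.37, edgeR, adjusted p = 2.36e-08) and 24.9-fold in RNF138-/- (4.64, SE 0.35, adjusted p = 4.99e-08). Between CAC and colitis *Cyr61* was not called in either genotype, with log2 differences of −0.27 in wild type (edgeR, adjusted p = 0.574) and 0.63 in RNF138-/- (adjusted p = 0.0928).

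*Ctgf* (ENSMUSG00000019997.11, GRCm38 chr10:24595442-24598683, plus strand) shares 17.2% of its 50-base windows with the predicted gene *Gm15270*, so some of its reads may have been counted elsewhere or not at all. It had 743, 502 and 405 CPM in wild type organoids and 919, 789 and 757 in RNF138-/- organoids. In CAC colon it had 24.1, 48.3 and 22.2 CPM in wild type and 30.9, 37.6 and 36.4 in RNF138-/-. In colitis the wild type libraries spread widely, with 60.0, 14.0 and 92.4 CPM, and overlapped the 22.9, 12.3 and 18.7 of RNF138-/-. The organoid and colon libraries did not overlap, and the difference from CAC colon was 17.7-fold in wild type (log2 4.15, SE 0.52, edgeR, adjusted p = 7.25e-06) and 23.5-fold in RNF138-/- (4.56, SE 0.53, adjusted p = 2.94e-06). CAC and colitis overlapped in wild type (−0.80, edgeR, adjusted p = 0.239) and not in RNF138-/- (0.96, adjusted p = 0.0941), and neither was called. The latter passed with library totals as the scale (1.27, edgeR, adjusted p = 0.0295). Without wild type colitis replicate 2 the wild type difference was −1.30 (edgeR, adjusted p = 0.0207), past the threshold. Across the 18 libraries the log2 levels of *Cyr61* and *Ctgf* had a Pearson r of 0.97, which mostly contrasts organoids with colon. Over the 12 colon libraries r was 0.7, and after subtraction of group means it was 0.61 over all 18.

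*Ankrd1* encodes a nuclear ankyrin repeat protein first known from cardiac muscle. The gene (ENSMUSG00000024803.8, GRCm38 chr19:36111961-36120099, minus strand) was close to absent from colon, with 1 to 73 counts in the 12 libraries. It had 1.31, 0.398 and 1.76 CPM in wild type colitis, 0.479, 0.484 and 0.0504 in RNF138-/- colitis, 0.375, 3.50 and 0.740 in wild type CAC and 0.584, 0.931 and 1.08 in RNF138-/- CAC. In organoids it reached 57.2, 82.8 and 61.5 CPM in wild type and 32.9, 29.1 and 38.5 in RNF138-/-. Organoids exceeded CAC colon 41.9-fold in wild type (log2 5.39, SE 0.64, edgeR, adjusted p = 4.05e-06) and 38.2-fold in RNF138-/- (5.26, SE 0.64, adjusted p = 4.90e-06). Without wild type CAC replicate 2, the highest of the colon libraries, the wild type log2 value was 6.96 and still called, so the size of that fold rests on this library. The 2 organoid genotypes did not overlap either, as described with the genotype comparison.

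*Msln* encodes mesothelin, a surface glycoprotein of mesothelium and of many carcinomas. The gene (ENSMUSG00000063011.6, GRCm38 chr17:25748613-25754378, minus strand) had 419, 273 and 229 CPM in wild type organoids and 352, 222 and 335 in RNF138-/- organoids. CAC colon had 11.8, 17.5 and 9.62 CPM in wild type and 9.88, 27.5 and 25.7 in RNF138-/-. The organoid libraries were all above the colon libraries, 23.9-fold over CAC in wild type (log2 4.58, SE 0.60, edgeR, adjusted p = 1.08e-05) and 14.4-fold in RNF138-/- (3.85, SE 0.58, adjusted p = 3.58e-05). The 6 other mesothelial markers summed to 4.86 to 8.47 CPM in wild type organoids and 5.56 to 22.8 in wild type CAC, which overlap. In RNF138-/- they summed to 2.16 to 5.96 CPM in organoids and 1.33 to 1.93 in CAC, so these organoids were higher without overlap, as for *Msln*, with *Gpm6a* at 0 in organoids and *Wt1* and *Bnc1* at 0 in CAC. Their part in the *Msln* difference was not tested. In colitis the wild type libraries had 14.5, 8.57 and 10.8 CPM of *Msln* and the RNF138-/- libraries 52.4, 22.6 and 6.41. The RNF138-/- colitis libraries kept this order for the mesothelial gene *Upk3b*, at 91.8, 48.7 and 8.63 CPM, and its part in the *Msln* values was not tested.

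**Figure D2:**
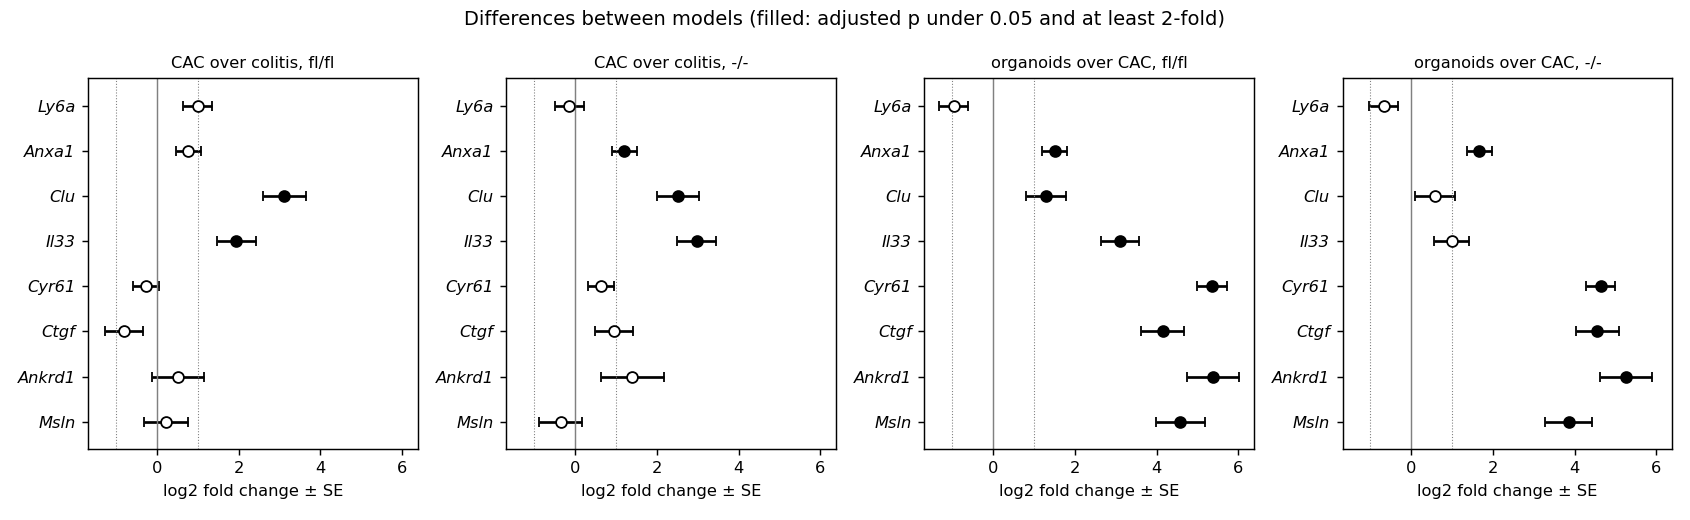
Log2 fold changes of the 8 genes with their standard errors for CAC over colitis colon and for organoids over CAC colon, in each genotype, from 1 fit of the 18 libraries. Filled points are called, open points are not, and dotted lines mark a 2-fold change. Clu and Il33 are called in CAC over colitis in both genotypes, and Cyr61, Ctgf, Ankrd1 and Msln are above 3.8 in both organoid comparisons.

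The organoid differences of these 4 genes were also taken relative to marker genes, since the organoid libraries differed in fibroblast RNA. Per 1000 counts of the 9 epithelial markers, the wild type organoid mean exceeded the CAC mean 40.1-fold for *Cyr61*, 17.5-fold for *Ctgf*, 40.2-fold for *Ankrd1* and 24.4-fold for *Msln*, and the RNF138-/- mean 25.8-, 23.9-, 38.8- and 14.0-fold. Per 1000 counts of the 7 fibroblast markers the wild type ratios were 5.46, 2.08, 6.37 and 2.76, with no overlap between the groups. In RNF138-/- the same ratios were 0.708, 0.71, 1.22 and 0.479, and the libraries overlapped for all but *Msln*, which was lower in organoids. For the other members the ratios per fibroblast marker count in wild type and RNF138-/- were 0.317 and 0.0872 for *Anxa1*, 0.295 and 0.0465 for *Clu*, 1.18 and 0.0515 for *Il33* and 0.0574 and 0.0162 for *Ly6a*, with overlap for *Il33* in wild type alone. Per epithelial marker count they were 3.09 and 3.34 for *Anxa1*, 2.41 and 1.45 for *Clu*, 8.49 and 2.13 for *Il33* and 0.584 and 0.658 for *Ly6a*. Relative to fibroblast marker RNA, then, *Cyr61*, *Ctgf*, *Ankrd1* and *Msln* were higher in wild type organoids than in CAC, and none of the 8 genes was higher without overlap in RNF138-/- organoids. The fibroblast markers did not move alike. Over CAC, *Col1a1* rose 35.6-fold in wild type and 67.7-fold in RNF138-/-, and *Pdgfra* 1.22- and 5.38-fold, while *Dpt* fell 8.17- and 1.55-fold. In RNF138-/- organoids *Col1a1*, *Col1a2* and *Col3a1* averaged 15000, 12300 and 13700 CPM and *Pdgfra* 532. The ratios are thus mostly to collagen RNA and are not levels per fibroblast. These ratios carry no test, and which cells of the organoid cultures held the transcripts was not tested.

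**Figure D3:**
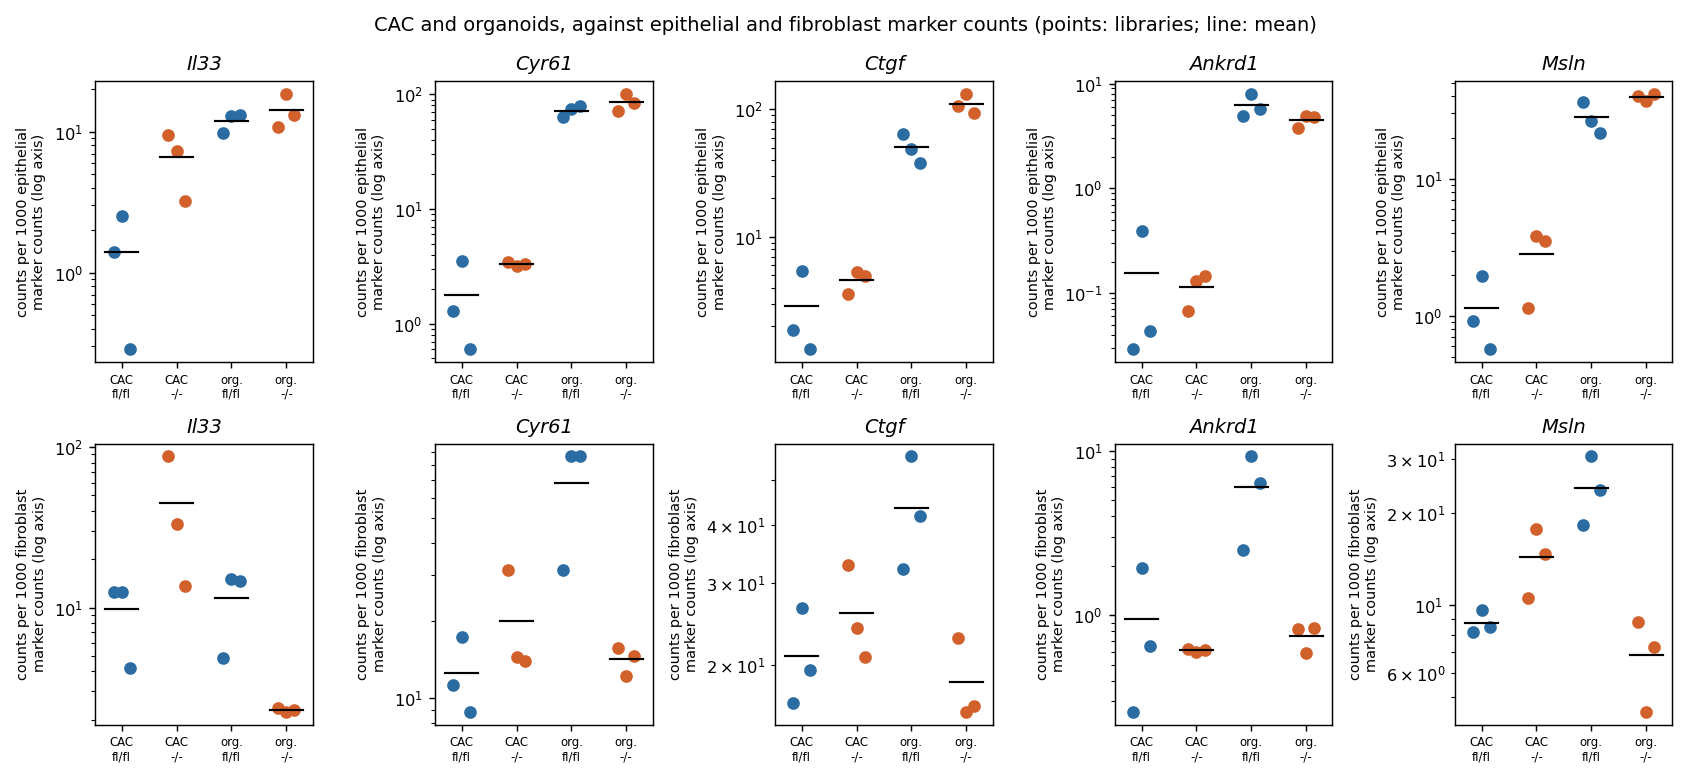
Counts of Il33, Cyr61, Ctgf, Ankrd1 and Msln per 1000 epithelial marker counts (top) and per 1000 fibroblast marker counts (bottom), on log axes, in CAC colon and organoids (org.). Points are libraries and lines are group means. The organoid libraries lie above CAC in the top row for all 5 genes, whereas in the bottom row the RNF138-/- organoid means are 0.0515, 0.708, 0.71, 1.22 and 0.479 times the CAC means for Il33, Cyr61, Ctgf, Ankrd1 and Msln.

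Among the fetal-like surface and secreted markers, *Ly6a* did not share this pattern. *Ly6a* (ENSMUSG00000075602.10, GRCm38 chr15:74994877-74998031, minus strand) encodes Sca-1, which is also carried by endothelial and blood cells, and shares 19.0% of its windows with neighbours such as *Ly6c1* and *Ly6i*. It had 227, 230 and 265 CPM in wild type colitis, 574, 315 and 343 in RNF138-/- colitis, 580, 338 and 509 in wild type CAC and 652, 225 and 244 in RNF138-/- CAC. Organoids had 284, 206 and 231 CPM in wild type and 279, 187 and 233 in RNF138-/-, within the colon range except for the lowest libraries. Wild type organoids were below wild type CAC (log2 difference −0.96, SE 0.35, edgeR, adjusted p = 0.0259), just under the 2-fold criterion, and the RNF138-/- difference was −0.68 (adjusted p = 0.105). With scaling by library totals alone both passed, at −1.12 (edgeR, adjusted p = 0.00802) and −1.28 (adjusted p = 0.00272). The sum of the 7 endothelial markers was lower in the same step. It was 119 to 188 CPM in wild type CAC against 13.1 to 19 in wild type organoids, and 114 to 187 against 7.97 to 10.7 in RNF138-/-. Of these markers *Cldn5* was higher in wild type organoids without overlap and without passing (log2 0.996, edgeR, adjusted p = 0.134). The lymphoid and myeloid sums were lower too, and the part of these markers in the *Ly6a* values was not tested. Wild type CAC exceeded wild type colitis in every library, with a log2 difference of 1.00 (SE 0.35) that missed the threshold (edgeR, adjusted p = 0.0551). It passed with DESeq2 (1.00, adjusted p = 0.0337), with library totals as the scale, with only the groups compared in the fit and without wild type CAC replicate 2, at adjusted p from 0.0337 to 0.0433.

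*Anxa1* encodes annexin A1, a calcium-dependent phospholipid-binding protein that ends neutrophil recruitment through formyl peptide receptors. The gene (ENSMUSG00000024659.14, GRCm38 chr19:20373428-20390944, minus strand) had 179, 145 and 244 CPM in wild type colitis and 167, 156 and 157 in RNF138-/- colitis. It had 506, 235 and 217 CPM in wild type CAC and 490, 294 and 324 in RNF138-/- CAC, and 1166, 758 and 744 and 1242, 1228 and 1027 in the wild type and RNF138-/- organoids. The order colitis, CAC, organoids held for the group means in both genotypes, with overlap only between wild type colitis and wild type CAC. *Anxa1* was called higher in RNF138-/- CAC than in RNF138-/- colitis (log2 difference 1.2, SE 0.30, edgeR, adjusted p = 0.00335), and in wild type the difference was 0.77 (adjusted p = 0.0827). Without the first RNF138-/- CAC library the value was 0.95, under 2-fold. The sum of the 7 squamous markers moved with *Anxa1*, at 1.92 to 10 CPM in RNF138-/- colitis and 26.7 to 137 in RNF138-/- CAC, with that first library the highest. Of these markers *Krt5* went the other way and was called lower (log2 −4.98, edgeR, adjusted p = 0.0398). *S100a8* and *S100a9* were also higher in RNF138-/- CAC. The part of these genes was not tested. Organoids exceeded CAC by 1.5 on the log2 scale in wild type (SE 0.31, edgeR, adjusted p = 5.5e-04) and by 1.66 in RNF138-/- (SE 0.31, adjusted p = 2.45e-04). Of its receptors, which are carried mainly by myeloid cells, *Fpr2* fell between CAC and organoids in both genotypes (log2 −3.70 and −4.29), and *Fpr1* likewise (−1.89 and −3.71). The sum of the 7 myeloid markers was lower beside them. It was 293 to 645 CPM in wild type CAC and 23.4 to 34.3 in wild type organoids, and 620 to 994 and 100 to 151 in RNF138-/-. Of these markers *Cd68* was called in neither genotype (log2 0.16 and −0.67). The part of the myeloid markers was not tested.

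*Clu* encodes clusterin, a secreted chaperone and a marker of revival stem cells. The gene (ENSMUSG00000022037.15, GRCm38 chr14:65968483-65981547, plus strand) had 38.5, 28.3 and 32.5 CPM in wild type colitis and 118, 47.6 and 76.2 in RNF138-/- colitis. CAC colon had 410, 368 and 82.3 CPM in wild type and 329, 779 and 271 in RNF138-/-, and organoids had 882, 606 and 570 and 849, 481 and 726. Wild type CAC replicate 3 was the lowest of the CAC libraries but still above wild type colitis. CAC exceeded colitis 8.69-fold in wild type (log2 3.12, SE 0.53, edgeR, adjusted p = 7.94e-04) and 5.69-fold in RNF138-/- (2.51, SE 0.51, adjusted p = 7.65e-04). Without RNF138-/- CAC replicate 2 the RNF138-/- value was 1.90 and still called. The sum of the squamous epithelium markers and the neutrophil genes moved with this difference. Of the squamous markers, *Krt14*, *Krt13*, *Krt4* and *Dsg3* were called higher in CAC in both genotypes, and *Krt5* was called lower in RNF138-/-. The 7 squamous markers summed to 1.63 to 2.51 CPM in wild type colitis and 1.92 to 10 in RNF138-/- colitis, against 43.9, 37.9 and 3.98 in wild type CAC and 137, 32.5 and 26.7 in RNF138-/- CAC, and replicate 3 of wild type CAC was thus low for them as for *Clu*. The neutrophil genes *S100a8* and *S100a9* were called higher in CAC in both genotypes. *S100a8* was at most 1.46 CPM in the colitis libraries and 15.4 to 116 in CAC, and *S100a9* at most 1.72 and 19.98 to 154. The 5 fat markers summed to 1.82 to 4.22 CPM in wild type colitis and 26.5 to 77.1 in wild type CAC, where *Plin1*, *Cfd* and *Cidec* were called higher, but to 10.3 to 65.3 and 0.607 to 1.38 in RNF138-/-, where these 3 and *Adipoq* were called lower. None of the 7 squamous or 7 myeloid markers was at 0 in a whole group, and the part of these markers in the *Clu* difference was not tested. Organoids exceeded wild type CAC by 1.29 (SE 0.49, edgeR, adjusted p = 0.0324), and without that library by 0.86 (adjusted p = 0.0963). The call was also lost without wild type organoid replicate 1 (1.07, edgeR, adjusted p = 0.107), with library totals as the scale (1.05, adjusted p = 0.0851) and with only the groups compared in the fit (1.25, adjusted p = 0.0840). In RNF138-/- the organoid difference was 0.58 (edgeR, adjusted p = 0.313), and −0.04 when libraries were scaled by their totals alone.

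*Il33* encodes interleukin-33, a nuclear alarmin released by damaged barrier and stromal cells, which signals through the receptor ST2 (*Il1rl1*) with *Il1rap*. The gene (ENSMUSG00000024810.16, GRCm38 chr19:29925114-29960718, plus strand) had 3.76, 2.78 and 5.52 CPM in wild type colitis and 5.75, 5.20 and 8.88 in RNF138-/- colitis. It had 18.1, 22.7 and 4.81 CPM in wild type CAC and 82.2, 51.9 and 23.7 in RNF138-/- CAC, and 113, 135 and 141 and 94.9, 111 and 106 in the organoids. CAC exceeded colitis 3.84-fold in wild type (log2 1.94, SE 0.47, edgeR, adjusted p = 0.00931) and 7.88-fold in RNF138-/- (2.98, SE 0.47, adjusted p = 1.02e-04). The squamous sum and neutrophil genes given beside *Clu* were higher in the same CAC libraries. Wild type CAC replicate 3 was the lowest CAC library for both *Il33* and the squamous sum, a relation that was not tested. The wild type libraries overlapped, through CAC replicate 3, and the wild type call was lost without the second wild type colitis or the second wild type CAC library, at adjusted p = 0.0570 and 0.0518 (edgeR), and with only the groups compared in the fit (adjusted p = 0.0577). Organoids exceeded CAC 8.63-fold in wild type (log2 3.11, SE 0.47, edgeR, adjusted p = 4.1e-05), and in RNF138-/- the difference of 0.99 did not pass, although the libraries did not overlap (SE 0.43, adjusted p = 0.0590). It passed without RNF138-/- CAC replicate 1 (1.45, edgeR, adjusted p = 0.0163) and with only the groups compared in the fit (1.02, adjusted p = 0.0403).

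The organoid step of *Il33* was therefore compared between genotypes directly. The genotype effect in organoids minus that in CAC was a log2 value of −2.12 (SE 0.62, edgeR, adjusted p = 0.0219), the only such difference called among the 8 genes, where 23.3% of all genes were called. It was lost without the first RNF138-/- CAC library (−1.63, edgeR, adjusted p = 0.0684), wild type organoid replicate 3 (−2.04, adjusted p = 0.0501) or the first RNF138-/- organoid library (−2.05, adjusted p = 0.0519). For CAC minus colitis, 0 of the 8 genes were called, against 14.1% of all genes (7.72% to 8.22% without RNF138-/- CAC replicate 2, wild type CAC replicate 3 or wild type colitis replicate 1), and 2 of the 8 had an unadjusted p under 0.05 in edgeR's fit, *Ly6a* at −1.14 (adjusted p = 0.132) and *Ctgf* at 1.76 (adjusted p = 0.0850). The receptor gene *Il1rl1* rose in CAC over colitis in both genotypes (log2 2.82, edgeR, adjusted p = 3.72e-04, and 3.62, adjusted p = 1.36e-05). It rose again in organoids over CAC (1.24, edgeR, adjusted p = 0.0139, and 1.35, adjusted p = 0.00848), together with *Il1rap* (2.08 and 2.78). In this step 17.5% of all genes rose in wild type and 17.9% in RNF138-/-. The fibroblast marker sums were higher in both genotypes, as given above, and their part was not tested.

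**Figure D4:**
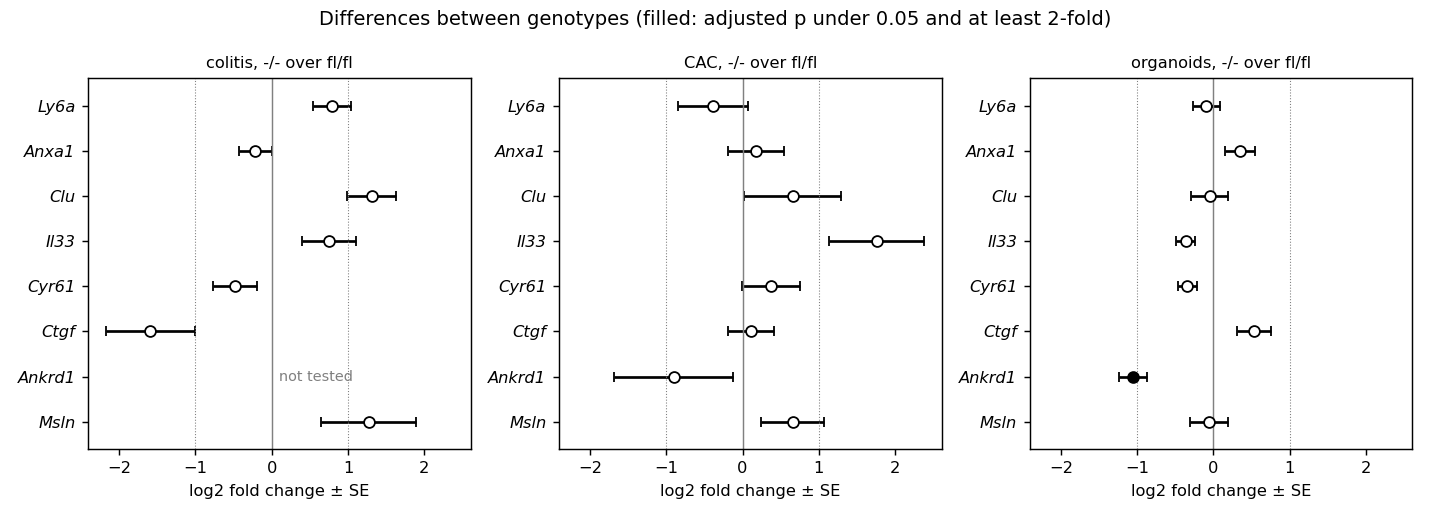
Log2 fold changes of the 8 genes, RNF138-/- over wild type, with standard errors, in colitis, CAC and organoids, each from its own fit of 6 libraries. Filled points are called, open points are not, and dotted lines mark a 2-fold change. Ankrd1 in organoids, at −1.05, is the only filled point, and Ankrd1 was too low to be tested in colitis.

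The genotypes were compared within each model. In colitis, 0 of 7 tested genes were called (*Ankrd1* was removed by the filter on low counts), where 0.0902% of all genes were, or 15 (0 to 147 with 1 library left out), and 3 had an unadjusted p under 0.05. Of these, *Clu* was 2.48-fold higher in RNF138-/- (log2 1.31, SE 0.32, edgeR, adjusted p = 0.208), with all RNF138-/- libraries above all wild type ones. *Ly6a* was likewise higher without overlap (0.79, SE 0.25, edgeR, adjusted p = 0.325), and *Ctgf* was lower in the mean with overlap (−1.59, SE 0.59, adjusted p = 0.400). *Clu* passed with DESeq2 (1.29, adjusted p = 0.0120) and without the filter on low counts (1.28, edgeR, adjusted p = 0.0119), and *Ctgf* passed without the filter (−1.62, edgeR, adjusted p = 0.0337). Groups did not overlap for 2 of the 7 genes, against 17.5% of all genes. Beside these, the 5 fat markers summed to 10.3 to 65.3 CPM in RNF138-/- and 1.82 to 4.22 in wild type colitis, and the lymphocyte genes *Ms4a1* (log2 2.43), *Cd3g* (1.61) and *Cd3e* (1.25) and the skeletal muscle genes *Acta1* (2.26), *Ckm* (1.48) and *Tnni2* (0.94) were higher without overlap and without passing. The skeletal muscle gene *Myh2* went the other way, with overlap (−1.91, edgeR, adjusted p = 0.476). The 7 skeletal muscle markers summed to 16.9 to 62.3 CPM in RNF138-/- and 11.9 to 17.8 in wild type, with overlap. The lymphoid sums overlapped too (1510 to 2580 and 1740 to 2660), and the part of these markers was not tested. Exact permutation tests of single genes cannot go below p = 0.1 (two-sided) with 3 libraries against 3.

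In CAC, 0 of 8 were called, where 5.37% of all genes were, or 954. That background rests on single libraries: edgeR called 0 genes without RNF138-/- CAC replicate 1 and 0 without replicate 2, 109 without replicate 3 and 287 without wild type CAC replicate 1. Groups did not overlap for 1 of the 8, against 44.6% of all genes. *Il33* alone had an unadjusted p under 0.05. It was 3.38-fold higher in RNF138-/- colon without overlap (log2 1.76, SE 0.63, edgeR, adjusted p = 0.11), and passed with DESeq2 (1.78, adjusted p = 0.0263) and in the fit of all 18 libraries (1.79, edgeR, adjusted p = 0.0103). Beside it, the 7 lymphoid markers summed to 124 to 217 CPM in RNF138-/- CAC and 1470 to 2260 in wild type, and smooth muscle markers were lower as given above. The 5 fat markers summed to 0.607 to 1.38 CPM in RNF138-/- CAC and 26.5 to 77.1 in wild type, with *Adipoq* (log2 −9.89), *Cfd* (−9.62) and *Cidec* (−4.05) called lower. The neutrophil genes *S100a8* (log2 1.82) and *S100a9* (1.76) and the myeloid gene *Itgam* (0.91) lay on the same side as *Il33* without overlap and without passing (edgeR, adjusted p = 0.055, 0.0508 and 0.0529). *Krt20* lay on the other side without overlap (−3.25, edgeR, adjusted p = 0.0612). The part of these markers in the *Il33* value was not tested.

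In organoids, 1 of 8 genes was called, *Ankrd1*, where 15% of all genes were called in either direction (9.63% without the second RNF138-/- organoid library) and 7.04% lower. It was 2.08-fold lower in RNF138-/- (log2 −1.05, SE 0.18, edgeR, adjusted p = 0.00476), with no overlap. The difference fell under 2-fold without the second wild type organoid library (−0.86) or the second RNF138-/- one (−0.95), and was not called in the fit of all 18 libraries (−1.01, edgeR, adjusted p = 0.190). *Il33* (−0.36, edgeR, adjusted p = 0.0513) and *Cyr61* (−0.34, adjusted p = 0.0671) were lower and *Ctgf* higher (0.53, adjusted p = 0.0881) without overlap between genotypes and without passing. Groups did not overlap for 4 of the 8 genes, against 53.2% of all genes. The summed fibroblast markers were 8940 to 23100 CPM in wild type and 40100 to 49500 in RNF138-/- organoids. The myeloid sums were 23.4 to 34.3 and 100 to 151 CPM, with *Itgam* (log2 5.06), *Adgre1* (4.93) and *Lyz2* (3.97) called higher and *S100a8* (−1.34) lower. Smooth muscle sums were 267 to 1360 and 1610 to 1790 CPM, with *Myh11* (1.87), *Actg2* (1.96) and *Synpo2* (1.51) called higher. Per 1000 fibroblast marker counts all 3 YAP targets had the lower mean in RNF138-/-, at 14.2 against 68.2 for *Cyr61*, 18.4 against 43.4 for *Ctgf* and 0.748 against 6.03 for *Ankrd1*. Per 1000 epithelial marker counts the mean was higher in RNF138-/- for *Ctgf* (110 against 50.3, no overlap) and *Cyr61* (85.5 against 72) and lower for *Ankrd1* (4.47 against 6.24), so the direction of *Cyr61* and *Ctgf* depends on the scale. The part of the marker differences in these values was not tested.

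Other genes of the same programmes, from lists chosen with earlier results of these data known, were counted beside the 8. Of 22 other YAP targets, 15 rose and 2 fell in organoids over CAC in wild type, led by *Amotl2* (log2 3.94), *F3* (3.42) and *Ccdc80* (3.37), where 17.5% of all genes rose and 26.8% fell, and 16 rose and none fell in RNF138-/-, where 17.9% rose and 26.5% fell, led by *Ccdc80* (4.45), *Amotl2* (4.19) and *Fjx1* (3.83). Between the organoid genotypes 6 of the 22 were higher in RNF138-/- and none lower, where 7.94% of all genes were higher and 7.04% lower, led by the receptor kinase *Axl* (1.78), *Myof* (1.26) and the kinase *Lats2* (1.25). *Axl* and *Ccdc80* are also expressed by fibroblasts, whose summed markers moved the same way. In CAC over colitis 1 rose (*Rbms3*, 1.06) and 1 fell (*Fjx1*, −1.76) in wild type, and 4 rose and 5 fell in RNF138-/-, with *Fjx1* (−3.56), *Foxf2* (−2.50) and *F3* (2.44) the most changed. Of all genes 9.78% rose and 3.81% fell in this step in wild type and 17.5% and 19.6% in RNF138-/-, so these counts lie near the background. Without wild type colitis replicate 1 the calls over all genes in wild type came to 8.61% in the 2 directions together. The median log2 difference of this list was −0.17 in wild type and −0.35 in RNF138-/- for CAC over colitis, against 0.04 and 0.05 over all genes, and 1.23 and 2.11 for organoids over CAC. Scaling by library totals alone gave 12 higher and 2 lower in wild type organoids over CAC and 13 and 0 in RNF138-/-.

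Of 22 other fetal-like and regenerative genes, 7 rose and none fell in CAC over colitis in wild type, among them osteopontin (*Spp1*, log2 6.45) and *Sprr1a* (2.78). In RNF138-/- 10 rose and 2 fell, among them *Spp1* (8.82) and the gastric annexin *Anxa10* (5.93), with *Emp1* (−3.70) and *Edn1* (−1.18) lower. Of all genes 9.78% rose and 3.81% fell in wild type, and 17.5% and 19.6% in RNF138-/-. The squamous sum and neutrophil genes given beside *Clu* were higher in the same step, and *Sprr1a* is itself a gene of squamous epithelium. The part of these markers was not tested. *Spp1* was at most 0.725 CPM in the colitis libraries, so its fitted values there depend on the prior count. In organoids over CAC 13 rose in wild type and 12 in RNF138-/-, and none fell, where 17.5% and 17.9% of all genes rose and 26.8% and 26.5% fell, with *Spp1* (6.86 and 4.67) and the growth factor epiregulin (*Ereg*, 5.26 and 5.98) among the first 3 in both. The sum of the 7 fibroblast markers was higher in the same step. In wild type it was 1140 to 1820 CPM in CAC and 8940 to 23100 in organoids. In RNF138-/- it was 942 to 1740 and 40100 to 49500. Within it *Dpt* had the lower mean in organoids in both genotypes and was called lower in wild type (log2 −3.03). The part of these markers was not tested. Scaling by library totals alone gave 13 higher and 1 lower in wild type and 11 higher and 2 lower in RNF138-/-. Between the organoid genotypes 3 of the 22 were higher in RNF138-/-, *Ereg* (1.28), *Spp1* (1.12) and *Itga2* (1.05), and 1 was lower, against 7.94% and 7.04% of all genes. With library totals as the scale this split became 1 higher and 4 lower.

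Of 20 Hippo pathway components, 7 rose and none fell in wild type organoids over CAC, led by *Frmd6* (log2 3.09), TAZ itself (*Wwtr1*, 2.54) and the cadherin *Dchs1* (1.67), and *Yap1* rose by 1.29. In these steps 17.5% of all genes rose and 26.8% fell in wild type, and 17.9% and 26.5% in RNF138-/-. The fibroblast marker sums were higher in the same step in both genotypes, as given above, and their part was not tested. In RNF138-/- 8 rose and 1 fell (the kinase *Stk4*, −1.10), led by *Frmd6* (4.59), *Dchs1* (3.70) and *Wwtr1* (3.0), and with scaling by library totals alone 4 rose. In CAC over colitis none of the 20 was called in wild type, where 9.78% of all genes rose and 3.81% fell, and 5 rose and 3 fell in RNF138-/-, led by *Tead2* (2.36), *Map4k4* (1.85) and *Vgll4* (1.65). Of all genes 17.5% rose and 19.6% fell in RNF138-/-, so the RNF138-/- counts lie near the background.

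Of 12 genes of homeostatic crypt stem cells, by contrast, 4 rose and 1 fell in CAC over colitis in wild type and 9 rose in RNF138-/-, led in both by the Wnt target *Lgr5* (log2 3.22 and 5.55), where 9.78% and 17.5% of all genes rose. In organoids over CAC 6 rose and 1 fell in wild type, with *Olfm4* (−4.76) lower and *Sox9* (2.56) and *Smoc2* (2.50) higher, and none rose and 5 fell in RNF138-/-, led by *Lgr5* (−2.69), *Cdca7* (−2.10) and *Ascl2* (−1.93). Of all genes 17.5% rose in wild type and 26.5% fell in RNF138-/-. The difference between genotypes in this step was called for 9 of the 12, all lower in RNF138-/-, where 23.3% of all genes were called and 10.2% lower. This contrast also holds the CAC side, where all 12 lay higher in RNF138-/- than in wild type, with a median log2 of 1.66. Of these, 2 were called, against 5.37% of all genes in either direction. Groups did not overlap for 11 of them, against 44.6% of all genes. Of the same 12 genes, 5 were lower in RNF138-/- than in wild type organoids, led by *Axin2* (−1.53), where 7.04% of all genes were lower. The epithelial marker sum was also lower and the fibroblast sum higher in these RNF138-/- organoids, as given above, and their part was not tested.

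**Figure D5:**
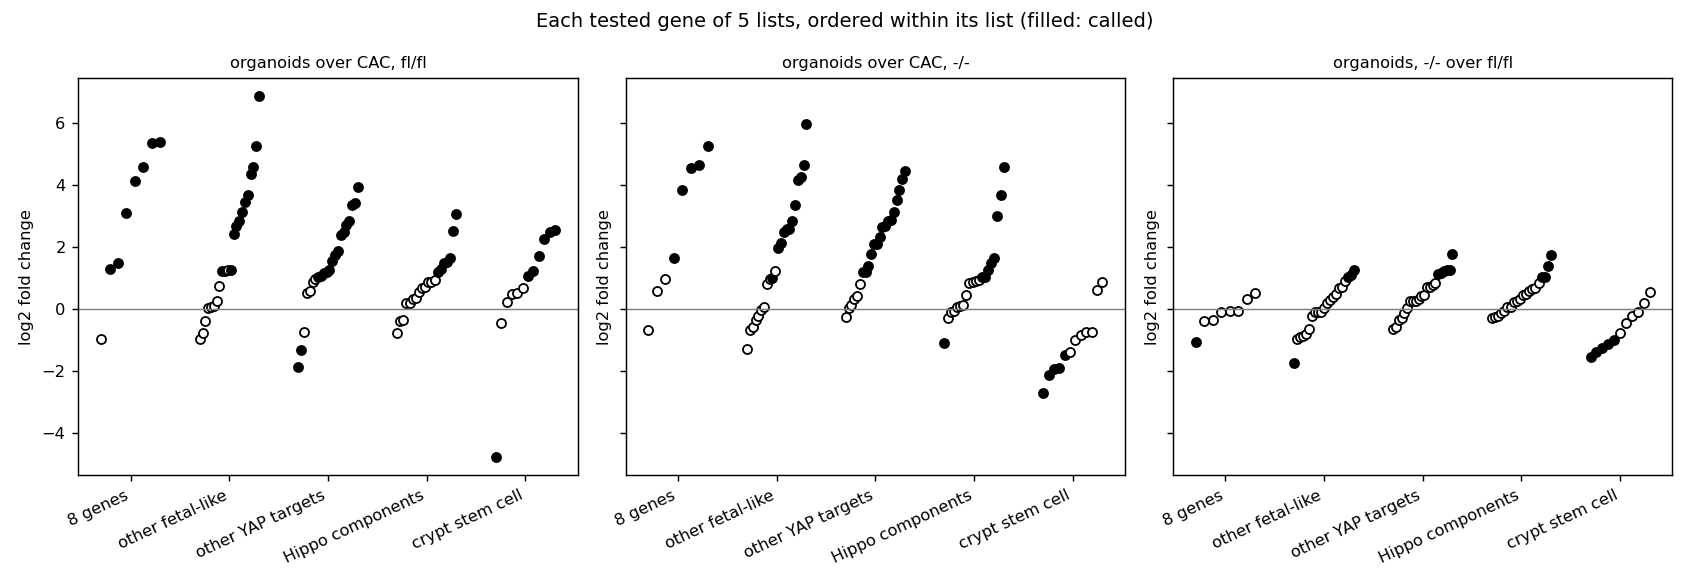
Log2 fold change of every tested gene of 5 lists, ordered within its list, for organoids over CAC colon in each genotype and for RNF138-/- over wild type organoids. Filled points are called. Of the 22 other YAP targets 15 and 16 are called higher in the organoid comparisons, whereas of the 12 crypt stem cell genes 6 are called higher in wild type and 5 lower in RNF138-/-.

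Among their nearest families, 2 of the 3 tested other CCN genes rose in organoids over CAC in both genotypes, *Wisp1* (log2 3.47 and 4.92) and *Wisp2* (3.03 and 4.13), and *Nov* fell in wild type (−2.32), where 17.5% and 17.9% of all genes rose. The fibroblast marker sums were higher in the same step, and their part was not tested. Of the 6 tested Ly6 neighbours of *Ly6a*, *Ly6d* was called higher in CAC over colitis in both genotypes (log2 3.38 and 1.69), where 9.78% and 17.5% of all genes were higher, and *Ly6h* lower in both (−3.30 and −4.79) and *Ly6c2* in RNF138-/- (−4.08), where 3.81% and 19.6% were lower. In organoids over CAC, where 26.8% of all genes in wild type and 26.5% in RNF138-/- were lower, *Ly6c2* fell in both genotypes, to at most 0.0669 CPM, and *Ly6i*, which shares windows with *Ly6a*, was called lower in wild type (−4.73, edgeR, adjusted p = 8.85e-04). *Ly6i* had 8 to 18 counts in the wild type CAC libraries and 0 or 1 in organoids, so its fitted value depends on the prior count. *Ly6c2* is carried by monocytes and T cells. The 7 lymphoid markers summed to at most 0.916 CPM in organoids, and the 7 myeloid markers to 23.4 to 34.3 CPM in wild type and 100 to 151 in RNF138-/- organoids, and their part was not tested. Per kilobase of exon, *Cyr61* and *Anxa1* stood highest in wild type organoids, at 386 ± 28.4 and 305 ± 82.3 CPM (SD, n = 3), with *Ly6a* and *Clu* at 200 ± 33.0 and 200 ± 49.6, *Ctgf* at 192 ± 60.8, *Msln* at 100 ± 32.4, *Il33* at 44.9 ± 5.21 and *Ankrd1* at 23.3 ± 4.75. In wild type colitis the order was led by *Ly6a* at 200 ± 17.5 and *Anxa1* at 65.0 ± 17.3, and *Cyr61* was at 11.6 ± 4.27.

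The genes whose log2 levels ran closest to each of the 8 across the 18 libraries were sought among 15905 genes with a mean of at least 1 CPM, as a description in which all points share the step from colon to organoid. For *Cyr61* they were *Apol8* (Pearson r = 0.987), the chemokine *Ccl2* (0.986) and *Btg3* (0.985), and for *Ctgf* they included *Thbs1* (0.971) and *Ube2h* (0.969). *Ankrd1* ran closest to *Cyr61* itself (0.968), the keratin *Krt17* (0.967) and *Gm15728* (0.964), and *Msln* to *Gadd45b* (0.975), *Rela* (0.971) and *Hspa2* (0.971). For *Anxa1* they were *Rab31* (0.979), *Wdr45b* (0.972) and *Mgp* (0.971), for *Clu* *Plat* (0.971), *Mmp9* (0.965) and *Tnfrsf11b* (0.963), and for *Il33* *Pfkfb3* (0.982), *Ttc9* (0.980) and *Ier3* (0.979). *Ly6a* had the weakest likeness, to *Trim40* (0.846), *Ccl20* (0.842) and *4930417H01Rik* (0.836).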

How the data were processed

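RNA from colon tissue and organoids was sequenced in 18 libraries prepared with a TruSeq kit. The authors deposited read counts per gene as whole numbers without normalization, and the submitters' processing notes name STAR 2.6.1d, HTSeq 0.11.2, DESeq2 and mm10, while the study's methods name Cufflinks. Whether strand was used in counting is not given in the sources used here. A separate file with the authors' fold changes (log2) and p-values for each genotype comparison was not used.

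Counts were analysed with edgeR 4.0.16 in R 4.3.3 (TMM, filterByExpr, glmQLFit, glmQLFTest). Genotypes were compared within each model in a fit of 6 libraries, and models and genotype-by-model differences (the latter called at adjusted p under 0.05 alone) in 1 fit of 18. All p-values were adjusted over all tested genes. Alternatives were DESeq2 1.42.0, RLE size factors, library totals, no filter, other sets of libraries in the fit, a replicate block, and each library left out. The fits were tested on simulated data. Positions and exon lengths come from GENCODE M21 (GRCm38, 99.84% of identifiers matched). Likeness used log2 CPM with a prior count of 2. The members and lists were chosen with earlier results of these data known. By the naming rule, the 8 members are given in every comparison and, of each list, the called genes with the 3 largest changes. Genes outside this rule were chosen with their values known, and some genes that the rule would name are not reported here.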

Additional observations from a re-analysis of the deposited data

Results flagged for a closer look

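The genotype difference of *Il33* was called as different between organoids and CAC colon, with an interaction contrast of log2 −2.12 (SE 0.62, edgeR, adjusted p = 0.0219). The call was lost without RNF138-/- CAC replicate 1 (−1.63, edgeR, adjusted p = 0.0684). It was also lost without wild type organoid replicate 3 (−2.04, adjusted p = 0.0501) or RNF138-/- organoid replicate 1 (−2.05, adjusted p = 0.0519). All RNF138-/- libraries lay above all wild type libraries in CAC and below them in organoids. Per 1000 epithelial marker counts the organoid means were 12 in wild type and 14.2 in RNF138-/-, with overlap, so the organoid direction turned on that scale. Per 1000 fibroblast marker counts they were 11.5 and 2.30. The wild type organoids carried *Xist* and no Y-linked counts and the RNF138-/- organoids the reverse, so genotype and sex cannot be told apart on the organoid side of this contrast.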

How the results depend on the processing

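The number of the 8 genes called was within 1.5 times the reported number in 46 of the 54 refits that keep all libraries. The exceptions, besides 2 with the replicate block, were, for the genotypes in colitis, 2 without the filter on low counts and 1 with DESeq2 (0 reported), for the genotypes in CAC, 1 with DESeq2 and 1 with all 18 libraries in the fit (0 reported), for the genotypes in organoids, 0 with all 18 libraries in the fit (1 reported), and for the genotype effect in CAC minus that in colitis, 1 without the filter (0 reported). The cause was not tested. With 1 library left out, the number ran from 0 to 1 for the genotypes in organoids (0 without the second wild type or second RNF138-/- organoid library), from 0 to 2 for the genotype effect in CAC minus colitis (1 without the second wild type colitis library or the first RNF138-/- CAC library, 2 without the second wild type CAC library), and from 0 to 2 for organoids minus CAC.

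Same-numbered libraries of the genotypes had correlated deviations of r 0.08 to 0.48 in colitis, 0.03 to 0.2 in CAC and −0.17 to 0.05 in organoids. In no comparison were all 3 pairs above 0.1, the limit used, so the numbers were not taken as pairs. With the replicate block, 1 gene (*Il33*, log2 1.84, edgeR, adjusted p = 0.0347) was called between the genotypes in CAC and 1 (*Ly6a*, −1.14) in the genotype effect in CAC minus colitis, where 0 were reported, and the other 7 counts were as reported.

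Scaling by library totals alone moved the median of all genes from −0.22 to −0.84 in RNF138-/- organoids over CAC, from −0.14 to −0.30 in wild type, and from 0.05 to 0.35 in RNF138-/- CAC over colitis. The share of calls that were higher went from 40.3% to 21.1% in the first of these and from 47.1% to 62.0% in the last, and from 53.0% to 36.1% between the organoid genotypes. This scaling turned the sign of 6 uncalled differences. They were *Ly6a* (0.17) and *Msln* (0.02) in RNF138-/- CAC over colitis, *Clu* in RNF138-/- organoids over CAC (−0.043), and *Ly6a* (−0.157), *Anxa1* (−0.259) and *Ctgf* (−0.002) in the genotype effect in organoids minus CAC.

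Leaving out a library turned the sign of further uncalled differences, whose log2 ranges were as follows. Between the genotypes they were −0.387 to 0.012 for *Anxa1* in colitis, −0.081 to 0.648 for *Anxa1*, −0.062 to 0.549 for *Ctgf* and −1.364 to 0.623 for *Ankrd1* in CAC, and −0.233 to 0.057 for *Ly6a*, −0.221 to 0.186 for *Clu* and −0.234 to 0.236 for *Msln* in organoids. In CAC over colitis they were −1.1 to 0.95 for *Ankrd1*, −0.83 to 0.025 for *Cyr61* and −0.079 to 0.407 for *Msln* in wild type, and −0.808 to 0.174 for *Ly6a* and −0.885 to 0.548 for *Msln* in RNF138-/-. In the genotype effect they were −1.074 to 0.33 for *Msln* in CAC minus colitis, and −1.694 to 0.355 for *Ankrd1* and −0.304 to 0.423 for *Anxa1* in organoids minus CAC. For *Ctgf* in organoids minus CAC the range was 0 to 0.688, the lowest being 0 after rounding, without wild type CAC replicate 2. *Ankrd1* had 1 to 73 counts in the colon libraries, which limits every colon value of that gene.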
